A study of Homo sapiens with 6 samples.

Results

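The alkaline phosphatase genes ALPG, ALPP, ALPI and ALPL were read in RNA from HCT116 cells edited with guides against MUC3A. They are 4 of the 15977 genes listed in the deposited tables, and all 4 were listed. The members were chosen by name, with the high counts of ALPG and ALPP in cells given the KO1 guide already known. Their values in KO1 against WT are therefore given as a description, with no test.

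Alkaline phosphatases are dimeric metalloenzymes that hydrolyse phosphate monoesters outside the cell and are held on the membrane by a glycosylphosphatidylinositol (GPI) anchor. ALPP encodes the placental enzyme, made mainly by the syncytiotrophoblast, and ALPG the closely related germ cell enzyme, known from testis and germ cell tumours. Both can be produced ectopically by carcinomas. ALPI encodes the intestinal enzyme of the enterocyte brush border, which removes phosphate from bacterial lipopolysaccharide. ALPL encodes the tissue-nonspecific enzyme of bone, liver and kidney, which cleaves inorganic pyrophosphate and pyridoxal phosphate and is mutated in hypophosphatasia.

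HCT116 is a human colorectal carcinoma cell line, and MUC3A encodes a membrane-bound intestinal mucin. KO1 and KO2 cells carried Cas9 and a guide to MUC3A, a different guide in each group, brought in by lentiCRISPR v2 virus (multiplicity of infection 10). Infected cells were kept in puromycin at 2 µg/mL for 72 h, and whether they were clones or pools is not stated. WT cells are named both wild type and negative control in the labels, which also describe a virus with a scrambled insert. Whether the sequenced WT cells were infected is not settled by the labels. There were 6 libraries, 2 for each of the 3 groups. Nothing in the labels ties the libraries of a group to separate cultures, so the p-values describe these libraries only, and the variation behind them may be technical. Each group has 1 library whose count column starts with HCT and another that starts with HCT116. The first kind is named the HCT set and the other the HCT116 set. No label explains the prefix. The set is a term of the main fit, so p-values between groups rest on variation left after the mean difference between sets is removed.

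The libraries held 13638724 to 17830282 counts. Mitochondrial genes took 4.20% to 8.90% of them. MUC3A stood at 52.9 and 28.6 CPM (counts scaled to library size; HCT set, then HCT116 set) in KO1, 30.0 and 24.6 CPM in KO2, and 52.7 and 25.1 CPM in WT, which does not check the knockout labels because edits need not change transcript amount. All 9 epithelial markers were present, with summed levels of 9341 and 15657 CPM in KO1, 5665 and 9796 CPM in KO2, and 6884 and 8975 CPM in WT. The sum was highest in the KO1 library of each set and came mostly from the keratins KRT8, KRT18 and KRT19. Other members differed from it, such as the junction gene CLDN3 at 17.6 and 20.9 CPM in KO1 against 27.0 and 42.7 CPM in WT. Of the 9, 5 had a positive log2 fold change in KO1 against WT. There edgeR called 0 of the 9 (6 at an unadjusted p under 0.05) and DESeq2 called 4. Over all 12679 tested genes edgeR called 130 in KO1 against WT (1122 at an unadjusted p under 0.05) and DESeq2 called 205. The part of these markers in the results was not tested. PTPRC, which marks leukocytes, and DCN, which marks fibroblasts, had at most 1 read in any library. Other genes of those marker lists were present. CD68, on the leukocyte list, stood at 19.0 and 17.5 CPM in KO1 and 7.55 and 8.50 CPM in WT. COL1A1, on the fibroblast list, stood at 63.1 and 34.3 CPM in KO1 and 65.7 and 42.4 CPM in WT.

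ALPP, ALPG and ALPI lie in this order on the forward strand of chromosome 2, in band 2q37. On GRCh38, in the GENCODE annotation, ALPP spans chr2:232378534-232382889, ALPG chr2:232406843-232410714 and ALPI chr2:232456123-232460032. The gap between ALPP and ALPG is 24.0 kb and that between ALPG and ALPI 45.4 kb. ALPL lies apart from them on the forward strand of chromosome 1, at chr1:21509372-21578412. All 4 are protein-coding genes. The submitters' processing notes name another build, hg18, so these positions serve for gene order only.

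The coding sequences of ALPG and ALPP were 97.3% identical in a global alignment. Those of ALPG and ALPI were 88.8% identical, and those of ALPP and ALPI 88.6%. ALPL was 63.0% to 63.5% identical to each of the others. The resemblance of ALPG and ALPP reached into the promoters. Over the 250 bases before the RefSeq start site the promoters of ALPG and ALPP were 84.4% identical, against 57.9% for ALPG and ALPI and 56.6% for ALPP and ALPI. The 3 promoters of the chromosome 2 genes are shown, from RefSeq on GRCh38.p14, because ALPG and ALPP were high in the same libraries while ALPI had at most 3 reads. Capitals mark exact matches to the motifs searched. The annotations place the starts differently: the GENCODE starts of ALPP and ALPI lie upstream of the RefSeq ones, so most of the ALPP stretch and the last bases of the ALPI stretch fall inside the GENCODE gene.
ALPP, chr2:232378501-232378750 (+ strand): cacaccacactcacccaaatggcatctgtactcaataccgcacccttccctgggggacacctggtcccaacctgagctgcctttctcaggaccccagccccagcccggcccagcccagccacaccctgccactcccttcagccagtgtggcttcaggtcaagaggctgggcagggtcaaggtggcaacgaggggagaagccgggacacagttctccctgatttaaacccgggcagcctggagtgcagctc
ALPG, chr2:232406594-232406843 (+ strand): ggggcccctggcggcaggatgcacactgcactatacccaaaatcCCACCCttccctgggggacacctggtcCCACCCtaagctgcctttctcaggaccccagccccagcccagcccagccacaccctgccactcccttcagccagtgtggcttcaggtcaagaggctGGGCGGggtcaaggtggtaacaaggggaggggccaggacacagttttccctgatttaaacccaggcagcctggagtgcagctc
ALPI, chr2:232455903-232456152 (+ strand): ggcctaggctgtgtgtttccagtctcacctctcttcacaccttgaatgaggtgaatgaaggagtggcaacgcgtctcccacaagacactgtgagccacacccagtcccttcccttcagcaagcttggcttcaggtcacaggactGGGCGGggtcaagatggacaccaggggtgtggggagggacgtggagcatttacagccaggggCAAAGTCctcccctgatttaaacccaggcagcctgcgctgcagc

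Motifs were searched as exact letters on both strands in windows that also hold the first 50 transcribed bases. In ALPG, the KLF box CCACCC began at −206 and at −179 and the SP box GGGCGG at −83, counted from the start site. In ALPI, GGGCGG began at −106 and the HNF4 half-site CAAAGTC at −44. The ALPP window held none of the letters searched. Of all 35116 RefSeq promoter windows, 34.3% held CCACCC, 45.0% GGGCGG and 3.37% CAAAGTC. The TATA box TATAAA (in 11.5% of windows), the AP-1 site TGANTCA (7.71%), the CDX site TTTATGG (2.54%) and the TEAD site GGAATG (14.0%) had no match in the chromosome 2 members. ALPL has 3 RefSeq start windows. Between them they held the TATA box, the KLF and SP boxes and the HNF4 half-site. No matches overlapped each other, and a match is a description of letters only.

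ALPG was high in both KO1 libraries and low in the other 4. In the HCT set it had 71 reads in KO1, 14 in KO2 and 8 in WT, or 4.76, 0.733 and 0.521 CPM. In the HCT116 set it had 260 reads in KO1, 23 in KO2 and 13 in WT, or 20.1, 1.59 and 1.02 CPM. In both sets KO1 stood highest and KO2 above WT, at 14 reads against 8 and 23 against 13. Across the sets, the HCT library of KO2 (0.733 CPM) lay below the HCT116 library of WT (1.02 CPM). ALPG and ALPP were chosen with their high KO1 counts known, so the place of KO1 is a description with no test. These are bulk libraries, so more cells making a transcript and more transcript per cell cannot be told apart.

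ALPP followed the same order. In the HCT set it had 62 reads in KO1, 21 in KO2 and 10 in WT, or 4.15, 1.10 and 0.651 CPM. In the HCT116 set it had 363 reads in KO1, 41 in KO2 and 22 in WT, or 28.1, 2.83 and 1.73 CPM. Again KO1 stood highest in both sets and KO2 above WT. Across the sets, the HCT library of KO2 (1.10 CPM) lay below the HCT116 library of WT (1.73 CPM).

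**Figure D1:**
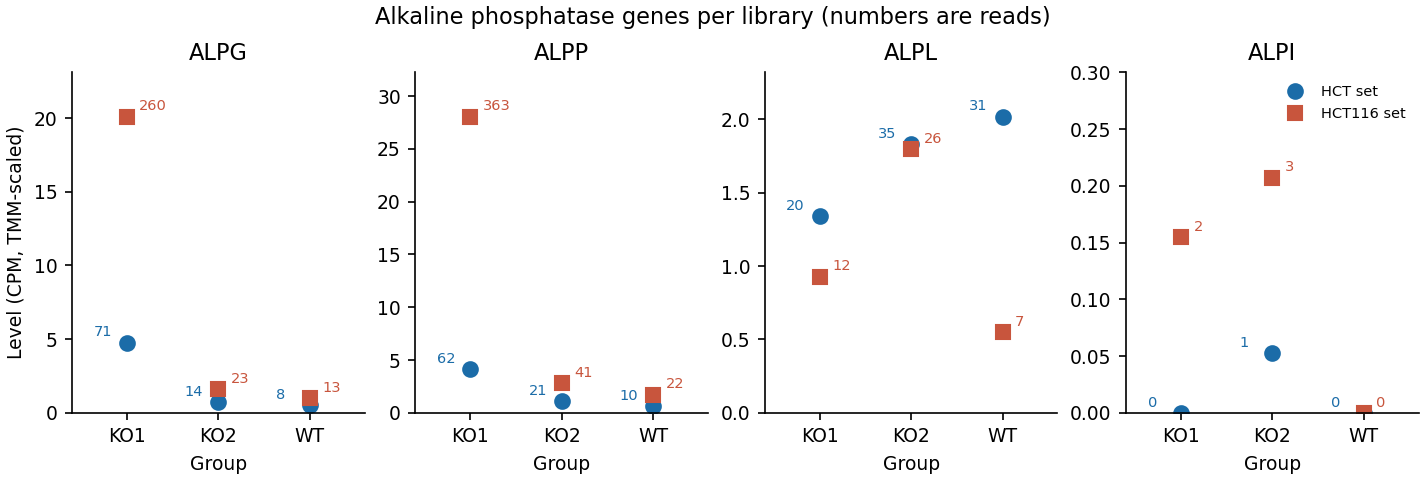
Level of each alkaline phosphatase gene in each library in CPM, by group, with circles for the HCT set and squares for the HCT116 set; the number beside a point is its reads. ALPG and ALPP are highest in the HCT116-set library of KO1 (260 and 363 reads), ALPL is at most 35 reads and ALPI at most 3, and the vertical scales differ between genes.

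Within sets, the ratio of KO1 to WT in ALPG was 9.14 for HCT libraries (95% exact counting interval 4.39 to 22.0) and 19.7 for HCT116 libraries (11.3 to 37.4). The ratio in ALPP was 6.38 (3.25 to 14.0) for HCT and 16.2 (10.5 to 26.2) for HCT116 libraries. Both ratios were larger in the HCT116 set, but the intervals of the sets overlap for each gene. With 1 library per group in a set this difference has no replicate check and was not tested. Intervals cover counting error only.

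In edgeR's fit of all 6 libraries with set as a term, ALPG was 14.4 times as high in KO1 as in WT, which is 3.85 ± 0.39 on the log2 scale (SE, n = 2 libraries in each group). ALPP was 11.5 times as high, at 3.53 ± 0.40. By log2 fold change they ranked 5 and 9 of 12679 genes tested, and the median over all genes was 0.00. Both were chosen with their high KO1 counts known, so these ranks are a description with no test. The fit called 130 genes in KO1 against WT, 1.03% of those tested, of which 86 (0.678%) rose and 44 (0.347%) fell. Without the set term it called 0 genes, with 173 at an unadjusted p under 0.05, and put ALPG at 4.01 and ALPP at 3.76. In the authors' deposited table ALPG had a log2 fold change of 4.0 and ALPP of 3.74.

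The KO2 guide gave smaller ratios, and edgeR called neither gene. The ratio of KO2 to WT in ALPG was 1.41 (counting interval 0.551 to 3.87) for HCT libraries and 1.55 (0.755 to 3.34) for HCT116 libraries. In ALPP it was 1.69 (0.761 to 4.02) and 1.64 (0.953 to 2.89). All 4 intervals include 1. With the reads of both genes summed, the ratio of KO2 to WT was 1.56 (0.862 to 2.93) for HCT libraries and 1.61 (1.05 to 2.50) for HCT116 libraries, and the second interval lies above 1. By edgeR, ALPG had a log2 fold change of 0.59 ± 0.48 (SE, adjusted p = 0.556) and ALPP of 0.77 ± 0.46 (SE, adjusted p = 0.402). The intervals of ± 2 SE run from −0.37 to 1.56 for ALPG and from −0.16 to 1.69 for ALPP, so small rises are within them. Of the 3 members that passed the filter on low counts, 0 were called in KO2 against WT by edgeR, where 4.62% of all tested genes were called (586 of 12679), 2.15% as higher and 2.47% as lower. Without the set term edgeR called 0 genes in KO2 against WT, with 310 at an unadjusted p under 0.05. The members' unadjusted p-values with it were 0.245 for ALPG, 0.124 for ALPP and 0.303 for ALPL, and DESeq2 also called 0 of them.

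The guides share the WT libraries, so the KO2 and KO1 libraries were also set side by side. The ratio of KO2 to KO1 in ALPG was 0.154 for HCT libraries and 0.0791 for HCT116 libraries. In ALPP it was 0.265 and 0.101. Without the HCT116-set library of KO2, ALPP passed the threshold in KO2 against WT, at a log2 fold change of 1.51 (edgeR adjusted p = 0.0370).

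**Figure D2:**
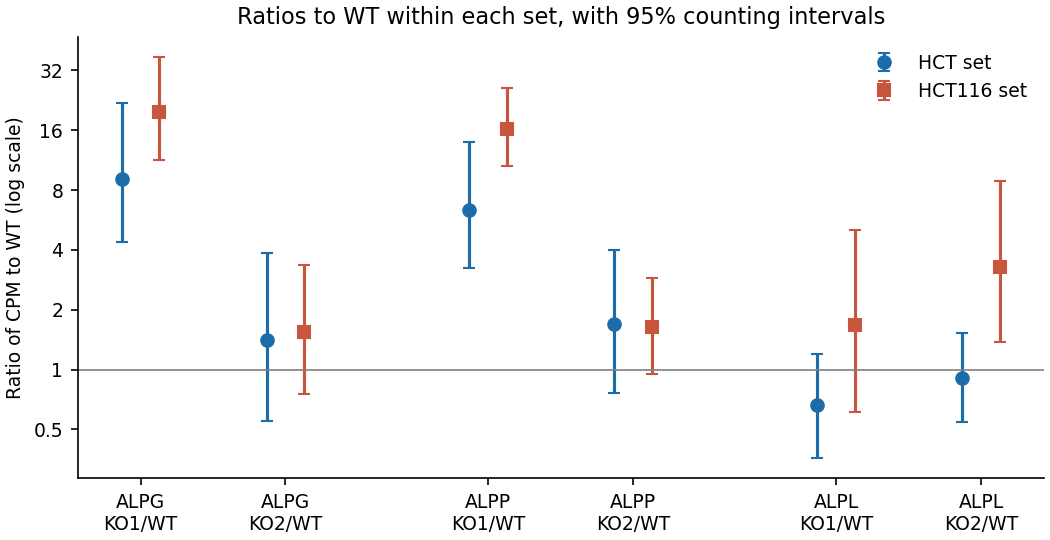
Ratio of CPM in KO1 and in KO2 to WT within each set of libraries, on a log scale, with bars for 95% exact counting intervals; the grey line marks a ratio of 1. The KO1 ratios of ALPG and ALPP lie between 6.38 and 19.7 and their bars stay above 1, while their KO2 ratios lie between 1.41 and 1.69 with bars that cross 1. The KO1 ratios are a description, since the pair was chosen with its high KO1 counts known.

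Both genes were higher in the HCT116-set library of every group, although the counting interval of ALPG in WT includes 1. The ratio of the HCT116-set to the HCT-set library in ALPG was 4.22 in KO1 (counting interval 3.24 to 5.57), 2.17 in KO2 (1.07 to 4.56) and 1.96 in WT (0.755 to 5.47). In ALPP it was 6.75 in KO1 (5.15 to 8.99), 2.58 in KO2 (1.49 to 4.59) and 2.66 in WT (1.21 to 6.29). By edgeR the log2 difference was 1.65 ± 0.32 for ALPG (SE, adjusted p = 0.000841) and 2.10 ± 0.32 for ALPP (SE, adjusted p = 0.000184). These calls stand among many, since 63.9% of all tested genes were called between the sets, 31.8% as higher and 32.1% as lower in the HCT116 set. The call of ALPG was lost without the HCT-set library of KO1 (adjusted p = 0.0717) and without its HCT116-set library (adjusted p = 0.104). The set difference and anything else that separates these libraries cannot be told apart.

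ALPL, the tissue-nonspecific gene, showed a different order from the placental pair. It had 20 reads in KO1, 35 in KO2 and 31 in WT in the HCT set, or 1.34, 1.83 and 2.02 CPM. In the HCT116 set it had 12 reads in KO1, 26 in KO2 and 7 in WT, or 0.927, 1.80 and 0.551 CPM. The order of the groups differed between the sets, and the lowest and the highest of the 6 libraries were both WT.

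The ratio of KO1 to WT in ALPL was 0.664 in the HCT set (0.359 to 1.20) and 1.68 in the HCT116 set (0.611 to 5.05). The ratio of KO2 to WT was 0.908 (0.544 to 1.52) for HCT libraries and 3.26 (1.38 to 8.90) for HCT116 libraries, where WT had 7 reads. By edgeR the log2 fold change was −0.14 ± 0.55 (SE) in KO1 and 0.55 ± 0.51 in KO2 (SE, adjusted p = 0.612), with ± 2 SE in KO2 running from −0.47 to 1.58. Between the sets it was −0.69 ± 0.43 (SE, adjusted p = 0.182). Leaving out the HCT-set library of WT put KO1 at 0.91, leaving out the HCT116-set library of WT put KO2 at −0.03, and leaving out the HCT-set library of KO1 put KO1 at 0.0046, so the sign of ALPL in either comparison rests on single libraries.

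ALPI, the intestinal gene, was at or near 0 throughout. It had 0 and 2 reads in KO1, 1 and 3 in KO2, and 0 and 0 in WT (HCT set, then HCT116 set). It did not pass the filter on low counts and was not tested. Each of these values is at or under 3 counts per library, so no fold is given. The neighbouring ALPG had 331 reads over the KO1 libraries, where ALPI had 2.

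Levels of different genes were compared per length, as CPM divided by the length of the GENCODE transcript in kb (2493 bases in ALPG, 2971 in ALPP, 2589 in ALPL and 2550 in ALPI). ALPG stood at 1.91 and 8.06 CPM per kb in KO1, 0.294 and 0.637 in KO2, and 0.209 and 0.410 in WT (HCT set, then HCT116 set). ALPP stood at 1.40 and 9.44 CPM per kb in KO1, 0.370 and 0.954 in KO2, and 0.219 and 0.582 in WT. ALPL stood at 0.518 and 0.358 CPM per kb in KO1, 0.708 and 0.694 in KO2, and 0.779 and 0.213 in WT. ALPI was at most 0.0813 CPM per kb. By this scale ALPL led in the HCT-set libraries of KO2 and WT, and ALPP or ALPG led in the other 4.

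The makeup of the 4-gene total followed from these levels. In the HCT set ALPL took 13.5% of the total in KO1, 50.8% in KO2 and 64.6% in WT. In the HCT116 set ALPL took 2.00% in KO1, 29.3% in KO2 and 17.6% in WT. The total itself was 3.82 and 17.9 CPM per kb in KO1, 1.39 and 2.37 in KO2, and 1.21 and 1.21 in WT, so it was highest in both KO1 libraries.

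**Figure D3:**
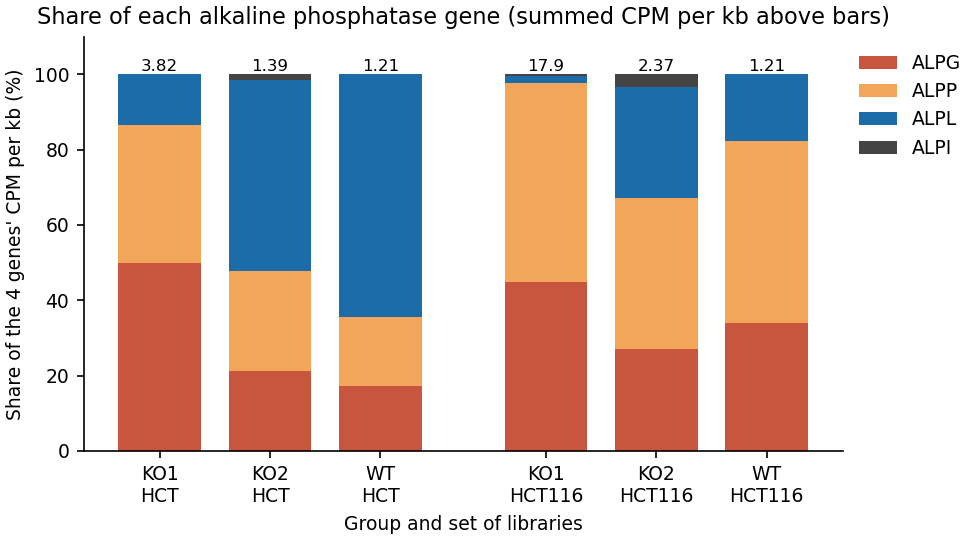
Stacked bars give the share of each gene in the summed CPM per kb of the 4 alkaline phosphatase genes, per library, with the HCT set on the left, the HCT116 set on the right and the sum above each bar. ALPG and ALPP fill most of both KO1 bars, and ALPL takes 64.6% of the WT bar in the HCT set.

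Because ALPG and ALPP are near copies, part of their reads could belong to either gene. Of the 50-base windows of the ALPG transcript, 29.3% occurred exactly in the ALPP transcript. The share was 20.6% at 75 bases, 15.8% at 100 bases and 8.49% at 150 bases. In the other direction 24.5% of the 50-base windows of ALPP and 7.05% of its 150-base windows occurred in ALPG. Counting matches in any other annotated gene, the shares of ALPP were 32.4% and 9.14%, so its reads could also match genes other than ALPG. For ALPG the shares in any other gene were the same as in ALPP. For ALPI, 1.52% of 50-base windows occurred in ALPP, and for ALPL none occurred in any of the others. Neither read length nor the treatment of reads with several matches is given in the sources used here. How the authors' counting divided such reads is therefore not known.

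The counting intervals for the division of reads between the pair overlapped from group to group. ALPG took 53.4% of the reads of the pair in KO1 (exact interval 44.5% to 62.1%), 40.0% in KO2 (23.9% to 57.9%) and 44.4% in WT (21.5% to 69.2%) in the HCT set. In the HCT116 set it took 41.7% in KO1 (37.8% to 45.7%), 35.9% in KO2 (24.3% to 48.9%) and 37.1% in WT (21.5% to 55.1%). Across the 6 libraries the log2 CPM of ALPG and ALPP correlated at r = 0.995 after the mean of each set was subtracted, as a description of 6 libraries in which the pair may share reads. With their reads summed into 1 feature, the ratio of KO1 to WT was 7.61 in the HCT set (4.63 to 13.2) and 17.5 in the HCT116 set (12.4 to 25.3). The summed feature gave a log2 fold change of 3.65 ± 0.33 (SE) in KO1 and 0.69 ± 0.37 in KO2 (SE, edgeR adjusted p = 0.342).

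**Figure D4:**
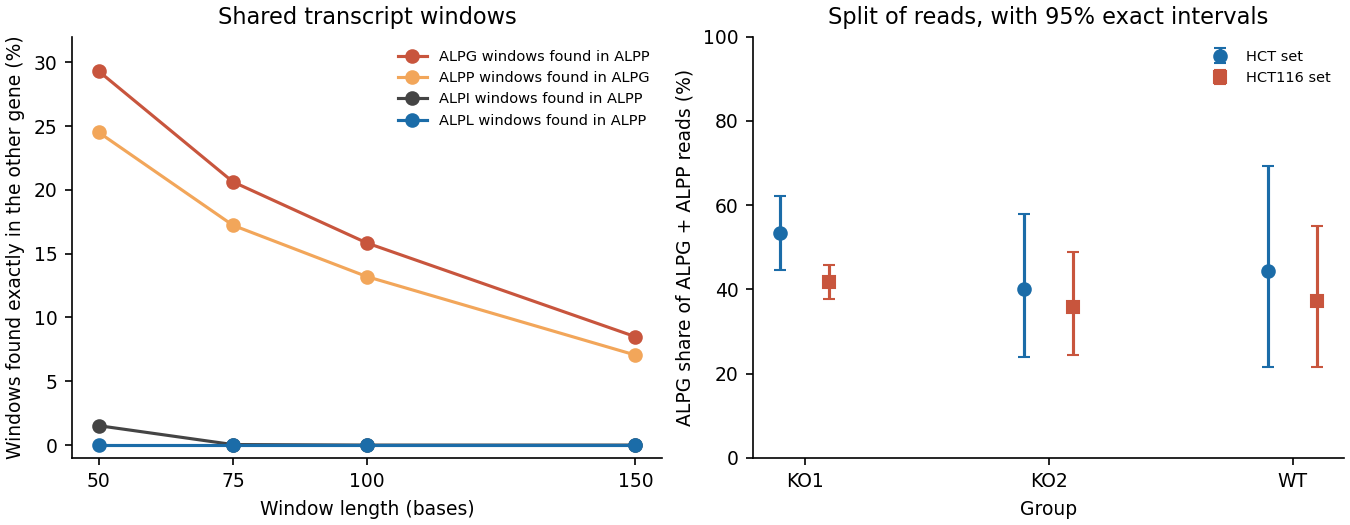
Left, share of transcript windows of 50 to 150 bases that occur exactly in the transcript of the other gene. Right, share of ALPG in the reads of ALPG and ALPP per library, with 95% exact intervals; shares lie between 35.9% and 53.4% and overlap between groups within each set.

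The genes around the cluster were examined next. In KO1 against WT edgeR called 0.678% of all 12679 tested genes as higher and 0.347% as lower, shares at which few calls fall among 20 genes. At an unadjusted p under 0.05 there were 1122 of all tested genes. Of the 20 tested neighbours on chromosome 2, 10 on each side, 0 rose and 0 fell in KO1 against WT by edgeR, with 0 at an unadjusted p under 0.05 and 0 called by DESeq2. Their log2 fold changes lay between −0.44 and 0.46, with a median of 0.01. DIS3L2, an exoribonuclease gene ending 34.2 kb before ALPP, stood at 33.7 and 45.5 CPM in KO1 and 35.3 and 44.0 CPM in WT, a log2 fold change of −0.01 ± 0.14 (SE). PRSS56, a serine protease gene starting 60.4 kb after ALPI, had 12 and 5 reads in KO1 against 4 and 9 in WT. The next neighbours NPPC, COPS7B, TIGD1 and EIF4E2 had log2 fold changes of 0.46, −0.13, −0.13 and 0.03 in KO1. In KO2, 1 of the 20 fell, HJURP, a centromere histone chaperone, at −1.17 ± 0.13 (SE, edgeR adjusted p = 0.000782), where 2.47% of all tested genes fell, so a single call among 20 is near the share over all genes.

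Around ALPL, 1 of 20 tested neighbours rose in KO1, CDA, which encodes cytidine deaminase, at 0.81 ± 0.14 (SE, edgeR adjusted p = 0.0226), where 0.678% of all tested genes rose. This call was lost without either KO1 library or without the HCT116-set library of WT. In KO2, 1 of 20 fell, where 2.47% of all tested genes fell. It was EPHB2, which encodes an ephrin receptor, at −0.55 ± 0.13 (SE, edgeR adjusted p = 0.0429). The call of EPHB2 was lost without the HCT-set library of KO1 or without either WT library. The nearest, NBPF3, ECE1 and EIF4G3 on one side and RAP1GAP, USP48 and HSPG2 on the other, had log2 fold changes between 0.03 and 0.80 in KO1 and passed the threshold in neither comparison.

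**Figure D5:**
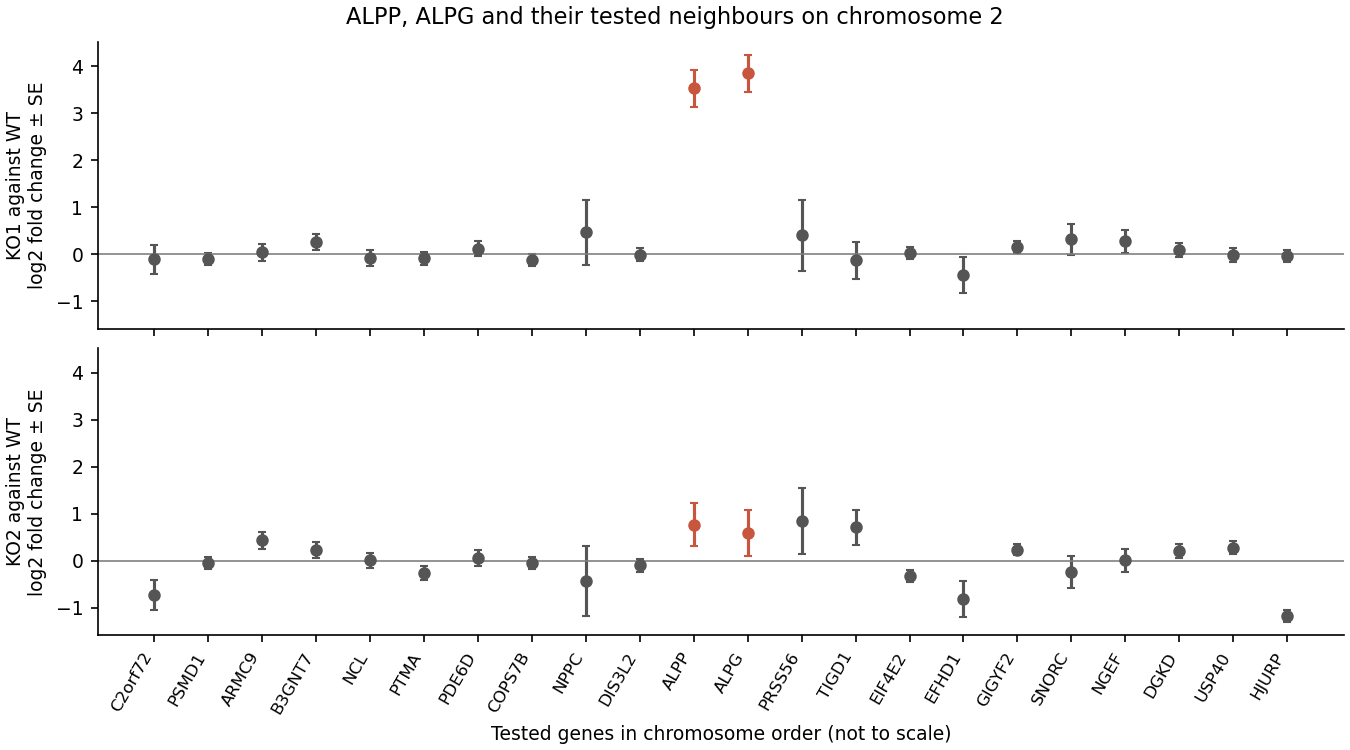
Log2 fold change with SE of ALPP, ALPG and the 20 tested genes around their cluster, in chromosome order, in KO1 against WT (top) and KO2 against WT (bottom). In the top panel ALPP (3.53) and ALPG (3.85) stand above neighbours that lie between −0.44 and 0.46, and in the bottom panel HJURP lies lowest at −1.17.

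The genes most like ALPG and ALPP were looked up across all libraries, by Pearson r of log2 CPM with the mean of each set subtracted, over 6 libraries and the 11404 tested genes whose log2 CPM averaged 1 or more, leaving out the members themselves. For ALPG they were FOXF1, CTDSPL2, KIF21A, YIPF6, BCAM and ERCC1, with r between 0.994 and 0.999. For ALPP they were KIF21A, COL6A1, FOXF1, S100A3, YIPF6 and HSPA13, with r between 0.996 and 0.9997. The lists share 3 genes. FOXF1, a forkhead transcription factor, stood at 12.5 and 18.2 CPM in KO1, 8.95 and 10.7 CPM in KO2, and 8.20 and 9.75 CPM in WT.

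Their log2 fold changes in KO1 lay between 0.17 and 1.40, below those of ALPG and ALPP. BCAM, a laminin-binding adhesion protein, stood at 0.84 ± 0.13 (SE), and S100A3, a calcium-binding protein, at 1.40 ± 0.22 (SE). These genes were picked for following ALPG or ALPP over the same libraries, so their values in KO1 are a description with no test. Without subtracting set means, 2 of the 6 genes stayed on each list.

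Other genes of the phosphatases' biology were taken from lists and counted. Of 27 tested genes that build the GPI anchor, 0 rose and 0 fell with either guide by edgeR, with median log2 fold changes of −0.07 in KO1 and 0.06 in KO2. Over all 12679 tested genes edgeR called 1.03% in KO1 and 4.62% in KO2, shares at which few calls fall among 27. At an unadjusted p under 0.05 there were 0 of the 27 in KO1 and 6 in KO2, beside 1122 and 2461 of all tested genes. DESeq2 called 0 of the 27 with either guide. Of 38 tested genes of other GPI-anchored proteins, edgeR called 0 in KO1 (median 0.09) and DESeq2 called 1. At an unadjusted p under 0.05 there were 11 of the 38 in KO1, beside 1122 of all 12679 tested genes. In KO2 2 of the 38 rose and 3 fell (median −0.23), where 2.15% of all tested genes rose and 2.47% fell. Without the HCT116-set library of WT 3 of the 38 were called in KO2, and without that of KO2 14. BST2, the antiviral tetherin, had 280 and 142 reads in KO2 against 50 and 40 in WT, at 1.93 ± 0.29 (SE, adjusted p = 0.00362). CD24, a mucin-like surface protein, fell by 0.97 on the log2 scale in KO2 (SE 0.16, edgeR adjusted p = 0.00639). EFNA2, an ephrin ligand, fell by 1.04 (SE 0.19, edgeR adjusted p = 0.0113), a call lost without the HCT116-set library of WT.

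Of 23 tested genes that handle phosphate, pyrophosphate and vitamin B6, edgeR called 0 in KO1 (median 0.03) and DESeq2 called 0. Over all 12679 tested genes edgeR called 1.03% in KO1. At an unadjusted p under 0.05 there was 1 of the 23 in KO1, beside 1122 of all tested genes. In KO2 2 of the 23 fell (median −0.06), where 2.47% of all tested genes fell. The KO2 count was 0 without either WT library and 7 without the HCT116-set library of KO2. PDXP, a pyridoxal phosphate phosphatase, stood at 4.29 and 14.0 CPM in KO2 against 9.24 and 24.1 CPM in WT, a log2 fold change of −0.92 ± 0.20 (SE, edgeR adjusted p = 0.0280). It lost the call without either WT library. ANKH, which exports ATP and pyrophosphate, fell by 0.49 (SE 0.13, edgeR adjusted p = 0.0494), and its call was lost when any 1 of the 4 KO1 and WT libraries was left out.

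Of 50 trophoblast genes 35 were listed, 11 of them with at most 3 reads in every library, and 16 were tested. Trophoblast is the cell type in which ALPP is normally made, and the list was chosen with earlier results known. Of the 16 tested genes, 3 rose and 0 fell in KO1 (median 0.43), where 0.678% of all tested genes rose. DESeq2 called 6 of them. Without 1 library at a time edgeR called 2 (without the HCT116-set library of KO1) to 9 (without the HCT-set library of KO2). KRT7, a simple-epithelial keratin, stood at 52.9 and 145 CPM in KO1, 2.51 and 5.53 CPM in KO2, and 13.7 and 35.5 CPM in WT. KRT7 rose in KO1 at 1.99 ± 0.15 (SE, edgeR adjusted p = 0.000108) and fell in KO2 at −2.58 ± 0.17 (SE, adjusted p = 1.83e-05), in opposite directions with the 2 guides. PEG10, an imprinted retrotransposon-derived gene, rose at 0.67 ± 0.13 (SE, edgeR adjusted p = 0.0374), a call lost without either KO1 library or the HCT116-set library of WT. In KO2 TFAP2A, a transcription factor, rose at 1.68 ± 0.21 (SE, edgeR adjusted p = 0.00112), and the list's median was 0.07. KRT7 and TFAP2A are expressed in many epithelia besides trophoblast.

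Defining trophoblast markers were near 0. Of 8, the genes CGB3, CYP19A1, GCM1 and ELF5 were listed, with summed levels of 0.536 and 1.08 CPM in KO1, 0.837 and 0.691 CPM in KO2, and 0.846 and 1.02 CPM in WT. CGA, PSG1, CSH1 and ERVW-1 were not listed. Of 5 germ cell tumour markers 2 were listed, NANOG and DDX4, with a summed level of at most 0.345 CPM. Of 5 tested germ cell genes 0 were called with either guide by edgeR or DESeq2 (1 at an unadjusted p under 0.05 in each), with medians of 0.01 in KO1 and −0.39 in KO2. Over all tested genes edgeR called 1.03% in KO1 and 4.62% in KO2, shares at which few calls fall among 5. Osteoblast markers summed to 2.48 and 1.55 CPM in KO1, 1.10 and 1.87 CPM in KO2, and 1.89 and 2.05 CPM in WT. The leukocyte list summed to 20.7 and 19.6 CPM in KO1, 5.55 and 12.99 CPM in KO2, and 8.59 and 8.97 CPM in WT. Most of it came from CD68, at 19.0 and 17.5 CPM in KO1, and PTPRC had 0 reads in both KO1 libraries. The fibroblast list summed to 35.4 to 67.7 CPM over all libraries, nearly all from COL1A1.

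Of 15 tested brush border genes, the setting of ALPI in the gut, edgeR called 0 in KO1 (median 0.01) and DESeq2 called 0. Over all 12679 tested genes edgeR called 1.03% in KO1. At an unadjusted p under 0.05 there were 2 of the 15 in KO1, beside 1122 of all tested genes. In KO2 1 of the 15 fell (median of the list 0.02), where 2.47% of all tested genes fell. It was EZR, the membrane-cytoskeleton linker ezrin, at −0.93 ± 0.16 (SE, edgeR adjusted p = 0.00819). Over all tested genes, 0.678% rose and 0.347% fell in KO1, and 2.15% rose and 2.47% fell in KO2. Of 18 tested transcription factors of intestine and bone, 1 rose and 1 fell in KO1 (median 0.10), and 2 rose and 2 fell in KO2 (median 0.14). The KO1 count was 0 without the HCT116-set library of WT and 8 without either KO2 library. HNF4A, a nuclear receptor of enterocyte genes, stood at 14.5 and 10.2 CPM in KO1 against 6.44 and 5.03 CPM in WT, at 1.10 ± 0.23 (SE, adjusted p = 0.0499). This call was lost when any 1 of the 4 KO1 and WT libraries was left out, and when ALPG and ALPP were summed (adjusted p = 0.0504). In KO2 MSX2, a homeobox factor of bone and placenta, rose at 1.32 ± 0.17 (SE, edgeR adjusted p = 0.00148). KLF4, a factor of differentiated gut epithelium, stood at 9.63 and 10.6 CPM in KO2 against 43.3 and 18.5 CPM in WT, at −1.49 ± 0.28 (SE, adjusted p = 0.0125).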

How the data were processed

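Poly(A) RNA of 6 HCT116 libraries was sequenced. Per the file headers, the authors deposited raw read counts per gene and library, and log2 fold changes with p-values for either guide against WT. STAR, HTSeq 0.6.0, DESeq2 and hg18 are named, with no role, in the submitters' processing notes. Strand use and read length are not given in the sources used here. The tables share 15284 gene symbols. A further 264 symbols occur in the KO1 table alone and 429 in the KO2 table alone, and these were taken as 0 where not listed. WT counts were identical in both tables. Another 40 per-sample columns, the authors' FPKM among them, were not used, so levels per length were computed from the counts in place of the FPKM named in the design.

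Counts were tested as deposited with the quasi-likelihood test of edgeR 4.0.16 in R 4.3.3, using TMM, group and set as terms, 2 residual degrees of freedom and Benjamini-Hochberg adjustment at 0.05. The filter filterByExpr (minimum count 10) kept 12679 genes and 3 of the 4 members. SE was taken as |log2 fold change| over √F. TMM-scaled sizes gave CPM, and a prior count of 2 was added for log2 CPM. The set was taken as a block because column names carry it. Deviations from group means of same-set libraries correlated across genes at 0.868 for KO1 and WT, 0.816 for KO2 and WT and 0.783 for KO2 and KO1. Columns carry no replicate number, so replicate numbers were not assigned to them. Libraries of 1 group differed by far more than sampling noise (chi-square over its degrees of freedom 79.2 to 122.5). Alternatives were no block, DESeq2 1.42.0, RLE scaling, no filter, each library left out, ALPG and ALPP summed, a prior count of 0.5, and uncentred correlations. A count of 3 corresponds to 0.168 to 0.220 CPM per library before TMM scaling. Intervals are 95% exact (Clopper-Pearson).

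Sequences and promoters came from GENCODE and RefSeq on GRCh38. Coding sequences were aligned in place of the proteins named in the design, which were not used here. Members and gene lists were chosen with earlier results of these data known. Besides the members, genes were named by rule: the 6 most like ALPG and ALPP, up to 3 called genes per list and comparison with the smallest p, and tested neighbours within 3 genes. HJURP, CDA and EPHB2 were named after their values were seen. Some called genes of the lists are counted but not reported here by name. The fits were run on simulated counts, with a fixed spread and with changes set only in genes of higher mean count than ALPL. That run does not bear on genes with few reads.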

Additional observations from a re-analysis of the deposited data

Results flagged for a closer look

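ALPL differed in direction between the sets of libraries. On the log2 scale with a prior count of 2, KO1 against WT stood at −0.55 for HCT libraries and 0.63 for HCT116 libraries. KO2 against WT stood at −0.13 for HCT libraries and 1.50 for HCT116 libraries. Each set holds 1 library per group, so the difference between the sets was not tested. ALPL had 7 to 35 reads per library, and both HCT116-set ratios rest on the 7 reads of 1 WT library.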

How the results depend on the processing

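Without the set as a block edgeR called 0 genes in KO1 (173 at an unadjusted p under 0.05) and 0 in KO2 (310), compared with 130 and 586 with it. ALPG then stood at 4.01 and ALPP at 3.76 in KO1, and at 0.58 and 0.72 in KO2. The set comparison has no value without the block. DESeq2 called 205 genes in KO1, and with no filter on low counts edgeR called 312 in KO1 and 938 in KO2. Leaving out 1 library at a time gave 69 to 901 calls in KO1, 318 to 2171 in KO2 and 6482 to 8754 between the sets. Calls in KO1 numbered 86 without the HCT library of KO1, 69 without its HCT116 library, 901 and 845 without the HCT and HCT116 library of KO2, and 215 and 78 without those of WT. Calls in KO2 numbered 1659 and 2171 without the HCT and HCT116 library of KO2 and 388 and 318 without those of WT. In KO1 against WT the same fits put ALPG at 3.21 to 4.25, ALPP at 2.63 to 4.02 and ALPL at −0.71 to 0.91. In KO2 against WT they put ALPG at 0.09 to 1.08, ALPP at 0.22 to 1.51 and ALPL at −0.032 to 1.58. Between the sets they put ALPG at 1.05 to 1.90, ALPP at 1.38 to 2.51 and ALPL at −1.16 to −0.23. Of 154 list counts under alternatives, 102 stayed within 1.5 times, 15 were smaller and 37 larger. With a prior count of 0.5, 12 of 12 log2 ratios of members kept their sign. The cause of these differences was not tested. Depth limits ALPI, ALPL and the WT values of ALPG and ALPP, which rest on 0 to 35 reads.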
